A study of Mus musculus with 102 samples.

Results

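Calorie restriction (CR) was compared with control diet in aged mice at a single time of day, zeitgeber time 8 h (ZT8), which counts from lights-on. The comparison holds 7 arrays, chosen by their labels of age, diet and time point, while 95 further arrays of the series lie outside it. There were 4 arrays of aged mice under CR and 3 arrays of aged mice on control diet. Both groups were epidermal stem cells of the epidermis, and their donors, Per1-Venus BAC transgenic animals of C57B6/J background, were 83 to 97 weeks old. The transgene, a bacterial artificial chromosome that reports the activity of Per1 by fluorescence, was carried by CR and control mice alike. The CR mice received 30% less food than the ad libitum intake for 25 weeks, after 3 weeks of adaptation in which their food was cut by 10% per week. The control mice ate control diet ad libitum. The design names 4 mice for each diet and time point, and 1 mouse of each diet was killed on a given day, so CR and control mice shared days of collection, but no label ties an array to its day. The sex of the mice and the hour at which CR mice were fed are not given in the labels. Other arrays of the series entered as context only: 7 arrays of adult mice (47 to 57 weeks) at ZT8 on the same diets, and 42 arrays of aged mice at the other 5 time points. The p-values measure the spread between arrays, which the design describes as separate mice.

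The circadian clock of a cell is a loop of transcription factors. Arntl (BMAL1) and Clock, or its relative Npas2, bind E-box elements and switch on the Per and Cry genes, whose proteins then block that same activation. A second loop of Ror activators and Rev-erb repressors (Nr1d1, Nr1d2) sets the rhythm of Arntl, and the factors Dbp, Tef and Hlf pass the rhythm on to other genes through D-box elements, where Nfil3 represses. Feeding time and glucocorticoids are known to set the clocks of peripheral tissues, and CR is known as a diet that extends life span in mice. Epidermal stem cells renew the epidermis from its basal layer and are known to carry such a clock.

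Values are log2 RMA levels as the authors deposited them, and differences are CR minus control. Array medians lay between 5.56 and 5.65 in CR and between 5.54 and 5.58 in control mice. The mean correlation of an array with the rest was lowest on CR replicate 1 (0.974) and lay between 0.981 and 0.985 on all others. Basal keratinocyte markers, the defining genes of the cells named in the labels, averaged 11.39 to 11.64 over 11 tested genes on CR arrays and 11.50 to 11.66 on control arrays. As a check of sex, Xist, an X-linked RNA of female cells, was compared with the mean of the Y-linked genes. Xist was the brighter in 2 of 4 CR arrays (replicates 1 and 3) and 2 of 3 control arrays (replicates 1 and 3).

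Under CR 1 gene was lower and 0 genes were higher at a Benjamini-Hochberg adjusted p under 0.05 (limma, 13383 genes tested, with every array of the series in the fit). That gene was Nrg4, on chromosome 9, which encodes neuregulin 4, a secreted ligand of the ErbB4 receptor in the epidermal growth factor family. The called share was 0.00747% of tested genes. At an unadjusted p under 0.05 there were 325 genes with a positive difference (2.43%) and 249 with a negative one (1.86%), together 4.29%, against the 5% that such a threshold passes when nothing differs. Single arrays moved this count: from 574 genes it went to 1160 without CR replicate 2 and to 323 without CR replicate 3, where 5% is 669 genes. The difference of all tested genes had a median of 0.0075 on the log2 scale, with 5th and 95th percentiles of -0.33 and 0.30, and 51.8% of genes were positive. The median standard error (SE) of a difference was 0.19. All 4 CR arrays lay above all 3 control arrays for 392 genes (2.93%) and below them for 412 genes (3.08%). A difference of at least 0.5 in size was met by 88 genes upward (0.658%) and 245 genes downward (1.83%).

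Nrg4 read 5.84, 5.93, 5.65 and 6.08 on the CR arrays, against 6.90, 6.999 and 6.68 on the control arrays. The groups did not overlap, and the highest CR array was 0.60 below the lowest control array. The means were 5.87 ± 0.18 in CR mice (SD, n = 4) and 6.86 ± 0.16 in control mice (SD, n = 3), so Nrg4 fell by 0.99 ± 0.19 (SE) on the log2 scale (limma adjusted p = 0.0233). The control mean at ZT8 was the highest of the 12 group means of aged mice, and the CR mean ranked 3. The 10 groups of the other times averaged 5.53 to 6.05, so CR mice at ZT8 lay within their range and control mice at ZT8 above it. At the other times the mean difference was -0.08, and the test of ZT8 against those times gave -0.91 ± 0.21 (limma adjusted p = 0.214). In adult mice at ZT8 the difference was -0.53, the groups overlapped and the gene was not called (limma adjusted p = 0.711). The call did not hold with only the 7 arrays in the fit (limma adjusted p = 0.106) or with only arrays of aged mice (limma adjusted p = 0.124). Nrg4 has 1 probe set on the array. It was also lost on leaving out any of CR replicates 1, 2 or 3 or control replicates 1, 2 or 3, and held without CR replicate 4.

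**Figure D1:**
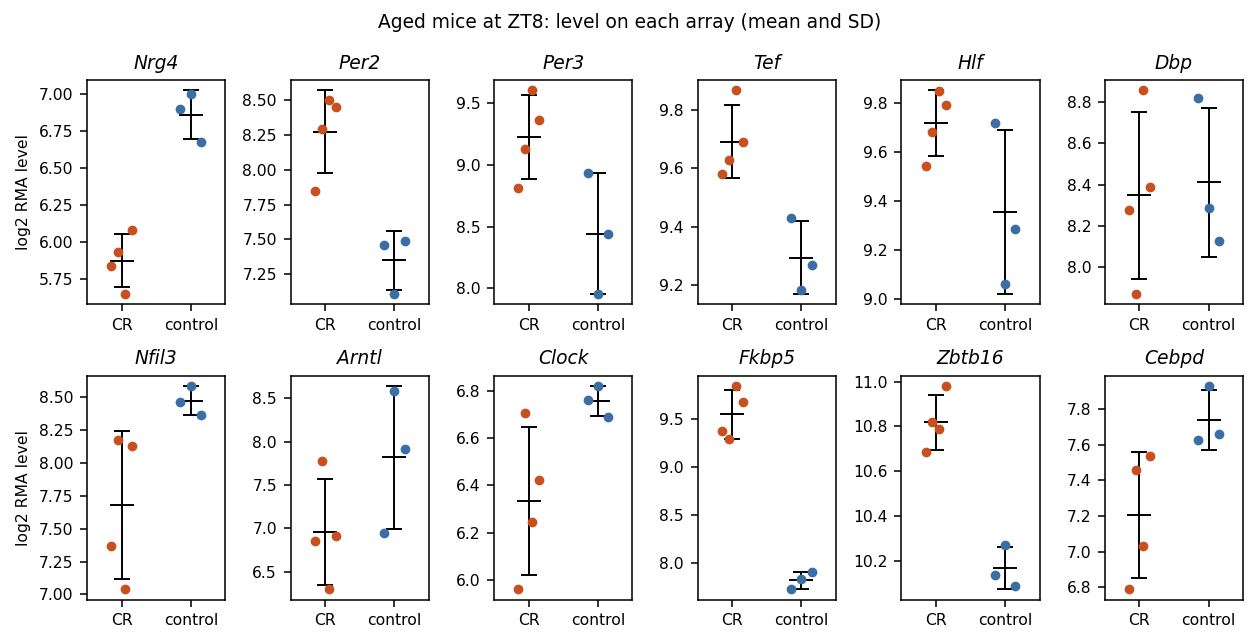
Log2 RMA level of 12 genes on each array of aged mice at ZT8, CR (orange, n = 4) left of control (blue, n = 3). Points are arrays and black bars are mean and SD. Nrg4, Per2, Tef, Nfil3, Fkbp5, Zbtb16 and Cebpd do not overlap between diets, while Per3, Hlf, Dbp, Arntl and Clock do.

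With unnamed transcripts left out, the 6 genes with a positive difference and the smallest p were Per2, Fkbp5, Hrct1, Slc7a2, Cd59a and Clstn3. None passed the threshold. Fkbp5 encodes a co-chaperone of the glucocorticoid receptor and is a textbook target of that receptor. It read 9.38, 9.30, 9.85 and 9.68 on CR arrays and 7.72, 7.83 and 7.90 on control arrays. The lowest CR array stood 1.40 above the highest control array, with a difference of 1.74 ± 0.40 (SE; limma adjusted p = 0.156). A second bright probe set of Fkbp5 gave 1.89 and another, dim one gave -0.13. Fkbp5 passed the threshold when the fit held only the 7 arrays or only arrays of aged mice. In adult mice at ZT8 the difference was 1.52 ± 0.40 (limma adjusted p = 0.367), with 8.38 ± 0.89 in CR mice (SD, n = 4) and 6.86 ± 0.06 in control mice (SD, n = 3).

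Slc7a2, a transporter of cationic amino acids, read 5.82, 5.99, 6.09 and 6.05 under CR, against 5.47, 5.51 and 5.43 on control diet. Cd59a, an inhibitor of the complement membrane attack complex, read 9.80, 9.88, 10.02 and 9.64 under CR, against 9.11, 9.16 and 9.06 on control diet. Neither gene overlapped between the diets. Their differences were 0.52 ± 0.13 for Slc7a2 and 0.73 ± 0.19 for Cd59a, each with a limma adjusted p of 0.277. In adult mice Cd59a differed by 0.72 and Slc7a2 by 0.24. Clstn3, a calsyntenin of the cell surface, differed by 0.49 ± 0.15 (limma adjusted p = 0.604). Hrct1 read 5.46, 4.73, 5.31 and 4.91 under CR and 4.47, 4.58 and 4.65 on control diet, a difference of 0.54 ± 0.13 (limma adjusted p = 0.247). Hrct1 is dim, and its control mean at ZT8 was the lowest of the 12 groups of aged mice.

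Among negative differences after Nrg4, 4 further genes were chosen after their values were seen, and none passed the threshold. Col6a1, a chain of collagen VI of the extracellular matrix, read 6.65, 6.52, 6.73 and 5.86 under CR, against 8.21, 7.22 and 8.79 on control diet. Crispld2, a secreted protein with cysteine-rich domains, read 5.54, 5.85, 5.69 and 5.78 under CR, against 7.17, 6.99 and 7.79 on control diet. The diets did not overlap in either gene, and the control arrays spread more widely than the CR arrays. The difference of Col6a1 was -1.63 ± 0.39 (limma adjusted p = 0.190) and that of Crispld2 was -1.60 ± 0.41 (limma adjusted p = 0.277). At the other times of day Col6a1 fell under CR by 0.94 (limma adjusted p = 0.000844), so its difference was not limited to ZT8. Crispld2 differed by 0.01 in adult mice at ZT8. Trp53inp2, an autophagy regulator, differed by -0.75 ± 0.18 and Rrad, a small GTPase, by -0.73 ± 0.18, with limma adjusted p of 0.190 and 0.239. Crispld2 passed the threshold with only the 7 arrays or only aged arrays in the fit, and Col6a1 with only aged arrays.

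Of the 19 core clock genes on the lists of activators, repressors and output factors, 16 were tested, 1 was below the dim filter and 2 were not analysed here. None passed the threshold for the difference at ZT8. Over the 16 genes 9 differences were positive and 7 negative, with a median of 0.10. By list, 1 of 4 activators, 6 of 9 repressors and 2 of 3 output factors were positive. An unadjusted limma p under 0.05 was met by 4 of the 16, against 4.29% of all tested genes, on lists chosen with earlier results known. The CR arrays lay above the control arrays in 2 genes (Per2 and Tef) and below them in 1 (Nfil3), against 2.93% and 3.08% of all tested genes.

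Per2, a repressor of the loop, had the smallest p of the positive differences. It read 7.85, 8.29, 8.50 and 8.45 on CR arrays and 7.46, 7.11 and 7.49 on control arrays, without overlap. The difference was 0.92 ± 0.20 (SE; limma adjusted p = 0.129), and a second probe set of Per2 gave 1.16. In the test of the diet difference at ZT8 against the mean diet difference at the other 5 times, Per2 was the 1 gene past the threshold (0.00747% of those tested), at 1.14 ± 0.22 (limma adjusted p = 0.0181). At those times CR minus control averaged -0.22 in Per2, a mean over unlike values. It was 0.06 at ZT0, 0.54 at ZT4, 0.07 at ZT12, -0.91 at ZT16 and -0.86 at ZT20. In adult mice at ZT8 the difference was 0.96 ± 0.20 (limma adjusted p = 0.122), again without overlap, and the test of aged against adult gave -0.04 ± 0.29. The call against other times was kept without CR replicate 1 and lost on leaving out any other array of the 7, and also lost with only aged arrays in the fit.

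Per3, a relative of Per2, read 8.81, 9.13, 9.61 and 9.37 under CR and 8.94, 7.96 and 8.44 on control diet. Control replicate 1 lay above CR replicate 1, so the groups overlapped, and the difference was 0.78 ± 0.35. Per1, the gene behind the reporter of these mice, differed by 0.24 ± 0.26. Of the other repressors, Cry2 differed by 0.33 ± 0.21, Cry1 by 0.20 ± 0.39 and Nr1d2 by -0.11 ± 0.23. Ciart, a repressor of CLOCK and BMAL1, differed by 0.33 ± 0.17. Bhlhe40, a repressor that competes for E-boxes, differed by -0.37 ± 0.28.

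The activator Arntl read 6.85, 7.77, 6.29 and 6.92 under CR, against 6.94, 8.59 and 7.92 on control diet. The groups overlapped through the low control replicate 1 and the high CR replicate 2, and the difference was -0.86 ± 0.50. It was -1.29 without control replicate 1 and -0.47 without control replicate 2, and a second probe set of Arntl gave -0.43. Clock differed by -0.42 ± 0.23, while its 3 other probe sets gave -0.07, -0.11 and -0.28. Npas2 differed by -0.08 ± 0.17 on its brightest probe set and by -0.57 on the other, with -0.33 for the mean of both. Rora differed by 0.01 ± 0.16, with a sign that turned under several settings. In adult mice at ZT8 the Arntl difference was -1.75 ± 0.50, without overlap (limma adjusted p = 0.517).

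Of the D-box factors, Tef read 9.58, 9.63, 9.87 and 9.69 under CR and 9.43, 9.18 and 9.27 on control diet. The lowest CR array stood above the highest control array, with a difference of 0.40 ± 0.17. Nfil3, the repressor at the same elements, read 7.37, 8.18, 7.04 and 8.13 under CR and 8.47, 8.59 and 8.37 on control diet. All CR arrays lay below the control arrays, with a difference of -0.80 ± 0.32. The CR arrays fell into a lower pair, replicates 1 and 3 with bright Xist, and a higher pair, replicates 2 and 4. The difference between these pairs was not tested. Hlf differed by 0.36 ± 0.21, its other probe set gave 0.06, and the difference was 0.55 without control replicate 1 and 0.21 without control replicate 2. Dbp read 8.28, 7.87, 8.86 and 8.39 under CR and 8.82, 8.29 and 8.13 on control diet, a difference of -0.06 ± 0.34 with overlapping groups. In adult mice Dbp was 9.42 ± 0.41 under CR and 8.13 ± 0.17 on control diet without overlap, a difference of 1.29. The test of aged against adult gave -1.35 ± 0.47 for Dbp and was not past the threshold over all genes.

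**Figure D2:**
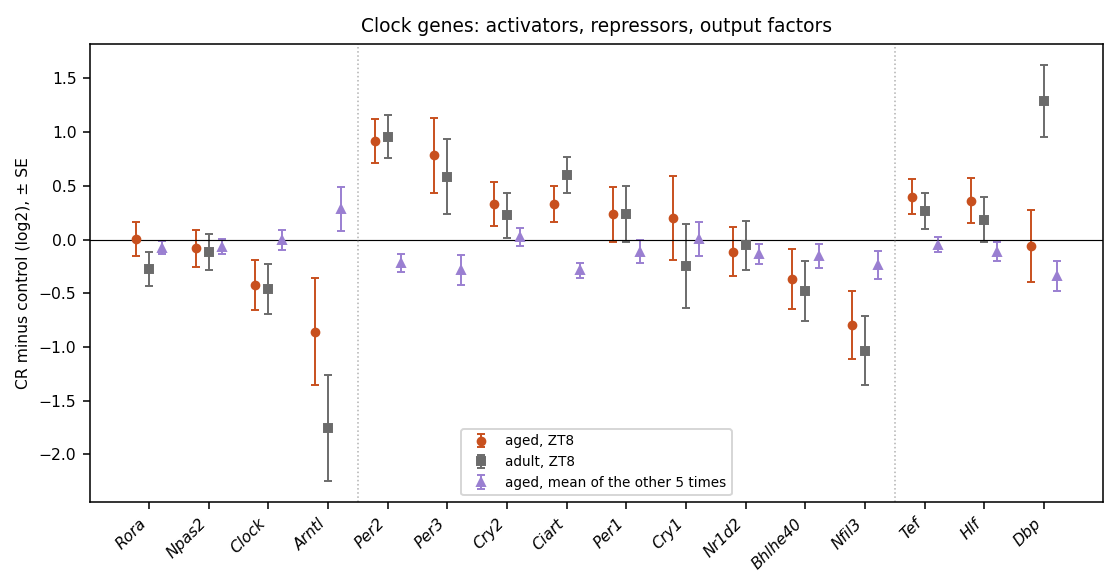
CR minus control on the log2 scale, with SE, for the 16 tested core clock genes in aged mice at ZT8 (circles), adult mice at ZT8 (squares) and aged mice over the other 5 times (triangles). Dotted lines part activators, repressors and output factors. Per2 stands highest in aged mice at 0.92 and lies at -0.22 over the other times, and Dbp parts the ages at -0.06 in aged and 1.29 in adult mice.

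The difference at ZT8 stands at one point of a daily course that was not level on either diet. Dbp averaged 7.73 under CR and 6.17 on control diet at ZT4, and 7.17 under CR and 8.77 on control diet at ZT12. At ZT8, between these times, it averaged 8.35 under CR and 8.41 on control diet. Per3 averaged 9.23 under CR and 8.44 on control diet at ZT8, and 8.38 under CR and 9.06 on control diet at ZT12. Arntl averaged 6.96 under CR and 7.82 on control diet at ZT8, the lowest of the 6 times under CR, and 8.34 under CR and 6.99 on control diet at ZT12, the lowest time on control diet. Per2 had its highest mean under CR at ZT8 (8.27) and its highest on control diet at ZT12 (7.98). Differences at the single other times were not tested here.

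**Figure D3:**
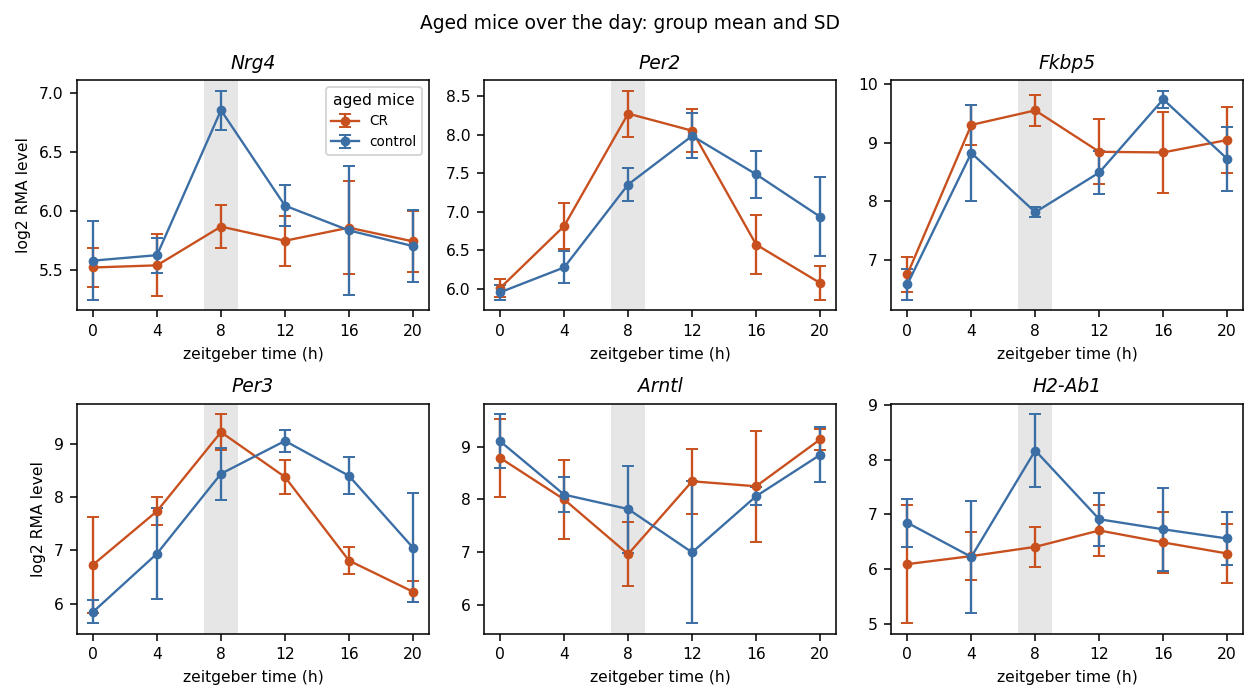
Group mean and SD of the log2 RMA level over 6 zeitgeber times (h) in aged mice, CR in orange and control in blue, with ZT8 shaded. Control mice at ZT8 stand above all other groups in Nrg4 (6.86) and H2-Ab1 (8.17), and CR mice have their highest Per2 and Per3 means at ZT8.

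RefSeq sequence of the 250 bases before the start was at hand for 14 of the 16 tested core clock genes and was not found for Per2 and Bhlhe40. The E-box was searched as CACGTG, which reads the same on both strands, and the D-box as TTATGTAA or TTACATAA, its reverse complement. Of the 14 genes 4 held an E-box and 1 a D-box, against 6.02% and 0.819% of all 32851 windows of this length. A gene was counted if the window of any of its starts matched, and some genes had several starts. The background share is per window, so the shares are not on the same unit. The windows of Nrg4, the called gene, and of 3 clock genes with matches are shown, 5′ to 3′ on the gene's strand (GRCm38.p6), with the matches in capitals. Nrg4 lies at chr9:55283626-55283875, minus strand, and holds neither motif. Per3 lies at chr4:151044666-151044915, minus strand, Ciart at chr3:95882229-95882478, minus strand, and Tef at chr15:81802423-81802672, plus strand. Per3 holds the D-box at 205 and 158 bases before the start, Ciart holds E-boxes at 116, 58 and 44 bases, and Tef holds 1 E-box at 127 bases. A match is a run of letters and says nothing of binding.
Nrg4: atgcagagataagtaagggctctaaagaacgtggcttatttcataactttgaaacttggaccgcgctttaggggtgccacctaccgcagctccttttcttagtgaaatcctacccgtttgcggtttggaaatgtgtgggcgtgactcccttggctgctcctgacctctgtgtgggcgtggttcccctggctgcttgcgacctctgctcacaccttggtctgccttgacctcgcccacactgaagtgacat
Per3: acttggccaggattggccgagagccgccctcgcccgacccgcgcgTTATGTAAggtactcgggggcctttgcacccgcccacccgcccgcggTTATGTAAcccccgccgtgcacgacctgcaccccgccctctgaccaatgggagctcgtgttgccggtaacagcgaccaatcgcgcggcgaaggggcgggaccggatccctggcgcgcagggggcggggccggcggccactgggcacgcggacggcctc
Ciart: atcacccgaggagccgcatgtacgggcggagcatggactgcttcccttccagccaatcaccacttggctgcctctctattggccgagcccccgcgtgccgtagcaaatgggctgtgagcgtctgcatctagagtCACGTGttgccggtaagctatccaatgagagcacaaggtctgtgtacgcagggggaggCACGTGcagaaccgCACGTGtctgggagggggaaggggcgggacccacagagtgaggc
Tef: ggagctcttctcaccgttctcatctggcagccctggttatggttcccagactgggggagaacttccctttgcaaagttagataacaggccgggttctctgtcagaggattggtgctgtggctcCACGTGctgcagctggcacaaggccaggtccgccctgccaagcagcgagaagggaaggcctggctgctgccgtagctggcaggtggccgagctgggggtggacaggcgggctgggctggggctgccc

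The list of glucocorticoid targets, Fkbp5 included, had 15 of 17 members tested, 5 positive and 10 negative, with a median of -0.03, and none passed the threshold. Zbtb16, a zinc finger factor known as such a target, read 10.69, 10.82, 10.79 and 10.98 under CR and 10.14, 10.27 and 10.09 on control diet. Cebpd, a C/EBP factor, read 6.79, 7.46, 7.03 and 7.54 under CR and 7.63, 7.93 and 7.66 on control diet. The groups did not overlap in either gene, in opposite directions, with differences of 0.65 ± 0.37 for Zbtb16 and -0.53 ± 0.25 for Cebpd.

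Over the 32 pathway lists no member passed the threshold. Counting each gene once, 532 were tested, 27 had an unadjusted p under 0.05 (5.08%, against 4.29% of all genes) and 41 did not overlap between diets (7.71%, against 6.01%). The lists below are described by counts and medians beside the median of 0.0075 and the 51.8% positive share of all genes.

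Genes of the unfolded protein response, which raise folding capacity of the endoplasmic reticulum, had 18 of 23 members negative, with a median of -0.24. Hsp90b1, the chaperone GRP94, read 10.60, 10.72, 10.65 and 10.73 under CR and 10.88, 11.02 and 10.95 on control diet. Pdia4, a disulfide isomerase, read 8.72, 8.53, 8.69 and 8.41 under CR and 8.91, 8.85 and 8.95 on control diet. Neither overlapped, and the differences were -0.27 ± 0.11 and -0.32 ± 0.13. Ddit3 (CHOP) differed by -0.40 ± 0.18, also without overlap. In adult mice these 3 genes differed by -0.03, -0.01 and -0.02. They were picked by smallest p in aged mice, which by itself favours larger aged differences, and the test of aged against adult called none of them. The list's median stayed negative on leaving out single arrays, from -0.28 to -0.15, the last without CR replicate 1.

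Of the Wnt pathway genes 16 of 19 were negative, with a median of -0.25. Sfrp1, a secreted inhibitor of Wnt, read 7.88, 8.05, 8.12 and 8.32 under CR and 8.82, 8.64 and 8.65 on control diet, without overlap. Its difference was -0.61 ± 0.19 (limma adjusted p = 0.637), and at the other times it fell by 0.40 under CR (limma adjusted p = 0.00933). The ligand Wnt5a differed by -1.07 ± 0.42, and the Dickkopf family member Dkk3 by -0.30 ± 0.18. Leaving out single arrays moved the list's median between -0.30 and -0.13, the last without CR replicate 1.

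Of the glycolysis genes 17 of 18 were negative, with a median of -0.15, and of the hypoxia genes 9 of 10, with a median of -0.28. Hk2, the inducible hexokinase, read 7.16, 7.03, 6.49 and 6.90 under CR and 6.60, 8.35 and 8.33 on control diet. Car9, a carbonic anhydrase induced by hypoxia, read 5.86, 5.39, 4.96 and 5.15 under CR and 5.59, 6.74 and 7.07 on control diet. In both genes control replicate 1 lay among the CR arrays and control replicates 2 and 3 lay above all of them. The differences were -0.87 ± 0.46 for Hk2 and -1.13 ± 0.31 for Car9 (limma adjusted p = 0.450). Pkm, the muscle-type pyruvate kinase, differed by -0.28 ± 0.17 without overlap, Pfkfb3 by -0.44 ± 0.35, Vegfa by -0.75 ± 0.40 and the prolyl hydroxylase Egln1 by -0.26 ± 0.17. The hypoxia median was -0.52 without control replicate 1 and -0.04 without CR replicate 3. The glycolysis median was -0.31 without control replicate 1 and -0.10 without control replicate 2.

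Of the inflammation genes 17 of 23 were negative, with a median of -0.18 that lay between -0.24 and -0.05 on leaving out single arrays, the last without CR replicate 1. The chemokine Cxcl1 read 5.62, 6.79, 4.92 and 5.69 under CR and 5.65, 6.97 and 7.18 on control diet, again with control replicate 1 among the CR arrays, and differed by -0.84 ± 0.40. The adhesion molecule Icam1 differed by -0.58 ± 0.33 and the alarmin Il33 by -0.49 ± 0.28. Irf1, a transcription factor of the interferon response, differed by -0.64 ± 0.32 without overlap. The interferon list had 7 of 12 members negative and a median of -0.17.

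In lipid metabolism the fatty acid oxidation list had 17 of 28 members positive, with a median of 0.08. That median was 0.02 without control replicate 2 and 0.16 without control replicate 3. Cpt1b, a carnitine palmitoyltransferase, differed by 0.35 ± 0.15, Acads, a short-chain acyl-CoA dehydrogenase, by 0.29 ± 0.14, and the thioesterase Acot2 by 0.42 ± 0.23, all with overlapping groups. Fatty acid and triglyceride synthesis had 9 positive and 13 negative members. Acaca, the acetyl-CoA carboxylase, differed by -0.43 ± 0.20, the elongase Elovl5 by -0.57 ± 0.29 and Gpam, the first enzyme of glycerolipid synthesis, by 0.42 ± 0.21. Sc5d, of cholesterol synthesis, differed by -0.61 ± 0.27 and the lipase Mgll by -0.42 ± 0.20, both without overlap.

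Of the cell cycle lists, DNA replication and mitosis lay close to 0. DNA replication had 17 of 32 members positive with a median of 0.02, and mitosis had 15 of 28 positive with a median of 0.02. Leaving out single arrays turned the sign of both medians, between -0.06 and 0.16 for replication and between -0.08 and 0.16 for mitosis. The other cell cycle lists had more negative than positive members, with mean levels per array that overlapped between the diets. Cyclins and E2F genes of G1 and S had 4 of 14 members positive with a median of -0.05. Cell cycle inhibitors and senescence genes had 5 of 16 positive with a median of -0.07. The growth arrest gene Gadd45g read 8.13, 8.09, 7.24 and 7.81 under CR and 8.70, 9.07 and 8.69 on control diet, without overlap. It differed by -1.004 ± 0.36 (limma adjusted p = 0.874), and its relative Gadd45a by -1.10 ± 0.52 with overlapping groups. Btg2, an antiproliferative gene, differed by 0.43 ± 0.22. Of the defence genes Defb1, a beta defensin, differed by 0.60 ± 0.37 without overlap. The lysosomal protease Ctsb spread little, at 10.92 to 10.95 under CR and 11.10 to 11.11 on control diet, and differed by -0.17 ± 0.08.

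Heat shock genes had 4 of 14 members positive and a median of -0.08, antioxidant genes 7 of 21 and -0.06, and insulin and fasting genes 11 of 24 and -0.06. Autophagy and lysosome genes had 7 of 22 positive and a median of -0.04, sirtuin and NAD genes 4 of 10 and -0.04, and the TCA cycle and respiratory chain 10 of 28 and -0.03. Ribosome and translation genes had 8 of 21 positive with a median of -0.02, immediate early genes 14 of 19 with 0.03, and DNA repair genes 14 of 24 with 0.03. Notch genes had 7 of 11 positive with a median of 0.07. Defence genes of the barrier had 7 of 10 positive with a median of 0.20.

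**Figure D4:**
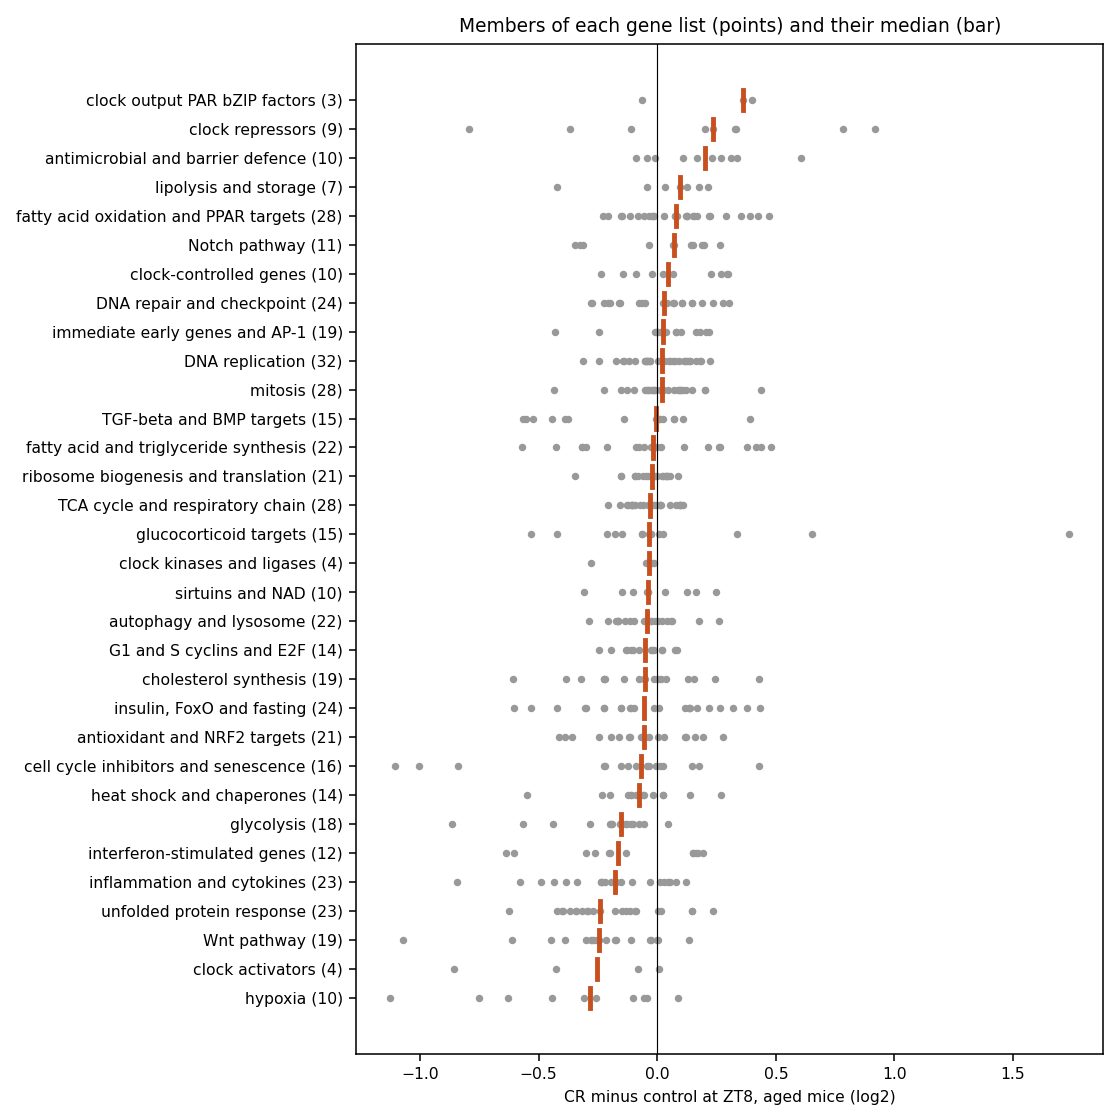
CR minus control at ZT8 in aged mice (log2) for each tested member (grey points) and the median (orange bar) of the 32 pathway lists, with the number of tested members in brackets. Medians run between -0.28 (hypoxia) and 0.36 (clock output factors), and single members reach 1.74 (Fkbp5).

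Markers of other cell types were read on the same arrays. In bulk samples, fewer cells of a type and less RNA per cell cannot be told apart. Langerhans and other myeloid cell markers averaged 6.96 to 7.30 over 7 tested genes under CR and 7.37 to 7.84 on control diet, without overlap. This gap rested on H2-Ab1, the member with the largest difference, and the mean levels overlap when H2-Ab1 is left out. Of the 7 genes 5 were negative, with a median of -0.31, and the defining markers Cd207, Lyz2 and Ptprc were below the dim filter. The 4 genes of MHC class II presentation on the list were negative, and its other 3 members differed in sign. Csf1r, the receptor of macrophage colony-stimulating factor, differed by 0.24 ± 0.14, with all CR arrays above all control arrays. Cd52, a leukocyte surface protein, differed by 0.07 ± 0.13 and Epcam, an adhesion molecule, by -0.20 ± 0.26, both with overlapping groups, and a second probe set of Epcam gave 0.13. H2-Ab1, the beta chain of an MHC class II molecule, read 6.73, 6.43, 5.90 and 6.58 under CR and 7.96, 8.91 and 7.63 on control diet. H2-Eb1, a further class II chain, read 7.62, 7.19, 7.29 and 7.45 under CR and 7.81, 8.55 and 7.76 on control diet. Neither overlapped, and control replicate 2 was the highest array in both. The differences were -1.76 ± 0.50 for H2-Ab1 (limma adjusted p = 0.453) and -0.65 ± 0.19 for H2-Eb1 (limma adjusted p = 0.493).

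The 2 other probe sets of H2-Ab1 gave -0.08 and 0.06, so the gene's probe sets did not move together. Cd74, the invariant chain, differed by -0.53 ± 0.21 and H2-Aa by -0.31 ± 0.20, with overlapping groups. Without control replicate 2 they differed by -0.31 and -0.05, and H2-Eb1 by -0.40. H2-Ab1 and H2-Eb1 had their highest means of the 12 aged groups in control mice at ZT8, at 8.17 and 8.04. In adult mice at ZT8 the differences were positive, 0.68 for H2-Ab1 and 0.52 for H2-Eb1, with overlapping groups. Adult CR arrays spread from 7.49 to 9.60 in H2-Ab1 and from 7.73 to 9.03 in H2-Eb1. Adult control arrays lay at 7.32 to 7.57 in H2-Ab1 and at 7.59 to 7.89 in H2-Eb1. The test of aged against adult called 0 genes (limma; 245 at an unadjusted p under 0.05, 1.83%), and H2-Eb1 had its smallest p, at -1.18 ± 0.27 (limma adjusted p = 0.391). With unnamed transcripts left out, the next smallest p of that test were those of H2-Ab1 and of Xaf1. Xaf1, an interferon-induced gene, was at -1.09 ± 0.32, and neither gene was past the threshold.

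T cell markers averaged 5.51 to 5.84 under CR and 5.65 to 5.84 on control diet. Within that list Thy1, also expressed by fibroblasts and other cells, read 7.39, 7.86, 7.48 and 7.01 under CR and 8.31, 8.38 and 9.29 on control diet, a difference of -1.22 ± 0.34 without overlap. Over the 7 tested genes of that list 5 were positive, with a median of 0.04. The part of other cell types in the differences at ZT8 was not tested. Dermal fibroblast markers averaged 5.89 to 6.46 under CR and 5.87 to 6.16 on control diet, with 6 of 7 positive and Col1a2, Dpt, Lum and Pdgfra below the dim filter. The exception was Sparc, a matrix protein, which differed by -0.70 ± 0.24 without overlap. Sparc was bright, at 9.76 on average over all arrays, so the 6 positive members averaged below the list's mean levels. Of the 8 tested bulge stem cell markers 4 were positive and 4 negative, with a median of -0.0045. Among them Postn, a matrix protein, differed by -0.88 ± 0.39, at 7.52 to 8.45 under CR and 8.46 to 9.49 on control diet, and by -0.57 without control replicate 3. Control replicate 3 was the highest array of Thy1, Sparc, Postn and Col6a1. Spinous layer markers had 7 of 8 members positive with a median of 0.22, and averaged 9.71 to 10.02 under CR and 9.59 to 9.83 on control diet. Among them Grhl1, a grainyhead factor of epidermal differentiation, differed by 0.46 ± 0.21.

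**Figure D5:**
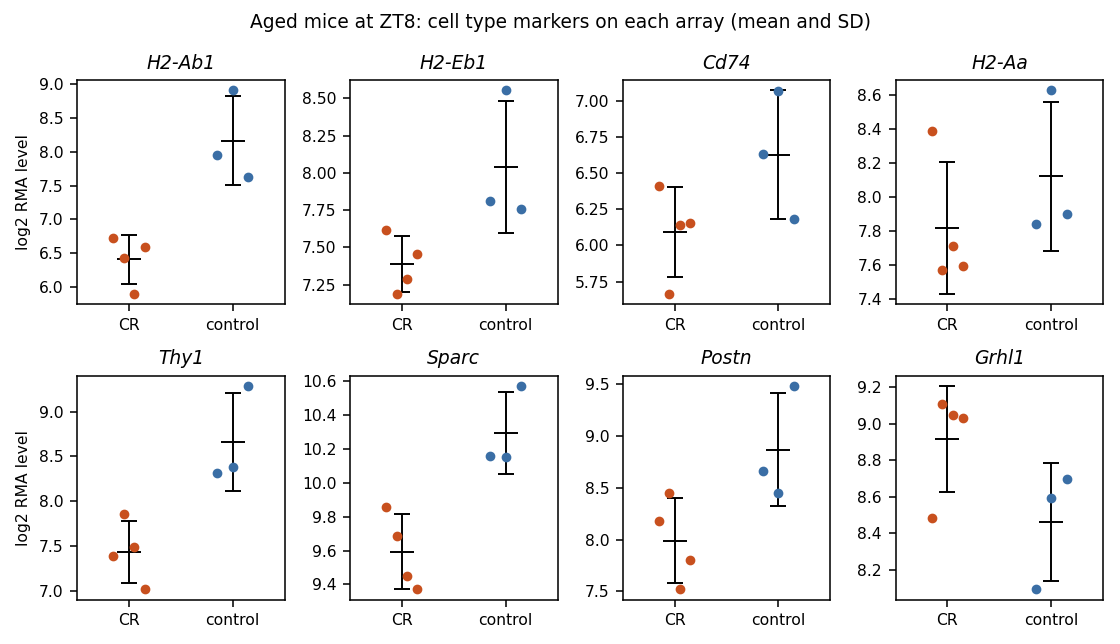
Log2 RMA level of 8 marker genes on each array of aged mice at ZT8, CR (orange, n = 4) left of control (blue, n = 3), with mean and SD. H2-Ab1, H2-Eb1, Thy1, Sparc and Postn do not overlap between diets, while Cd74, H2-Aa and Grhl1 do.

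As context, adult mice at ZT8 had 0 called genes (limma; 833 at an unadjusted p under 0.05, 6.22%), and their differences had a median of 0.05. Aged mice over the other 5 times had 5 genes called higher (0.0374%) and 5 lower under CR, from 42 arrays and with a difference spread of -0.12 to 0.14 at the 5th and 95th percentiles. The ZT8 difference against those times called 1 gene, with 553 genes (4.13%) at an unadjusted p under 0.05.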

How the data were processed

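Epidermal stem cells were measured on Affymetrix mouse PM arrays. Per the labels' protocols, TRIzol-extracted RNA (25 ng a sample) was turned into cDNA with 17 amplification cycles, and 8 µg of it was biotinylated. The deposited values are log2 expression levels that the authors made with RMA, per the submitters' processing notes, with no version given. They were used as deposited, over 45140 probe sets. RMA draws all arrays to 1 distribution, so a shift shared by most genes would not show.

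Probe sets with 1 gene symbol in the platform annotation were kept (28898; 551 carried several and 15588 none, and 103 control probe sets were left out), and the brightest stood for a gene. Genes below the 30th percentile of probe set means (4.73) were not tested, which left 13383 of 17097. Symbols were updated through RefSeq where possible. With limma 3.58.1 in R 4.3.3 (lmFit and eBayes), 24 group means were fitted over every array of the series, and contrasts gave the diet difference at ZT8, its difference from the other 5 times and its difference between ages. The last 2 share the aged ZT8 arrays with the first. P-values were adjusted by the Benjamini-Hochberg method over all tested genes, with a threshold of 0.05. The number of arrays limits the precision.

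The comparison, the 48 gene lists (777 genes, of which 631 were tested, 62 were below the dim filter and 84 are not analysed here) and the alternatives were chosen with earlier results of these data known. Text genes were the called genes, the 6 positive differences of smallest p, the core clock genes and some clock-controlled genes. Up to 3 members of smallest p per list, cell type markers and the 3 of smallest p for an interaction were added. Negative differences chosen after their values were seen also entered. Unnamed transcripts and the genes of the sex check were left out of the picks by p. Same-numbered replicates of the 2 diets correlated in their deviations at 0.23, 0.34 and -0.32. CR replicate 3 and control replicate 1 had the highest value, 0.50. Same-numbered replicates were also alike in the sex read from Xist. So few values cannot decide whether the numbers are pairs, and no label states it, so they were not taken as pairs. Alternatives changed the arrays in the fit, filter, probe set rule, normalization, variance model and covariates, and left out each array in turn.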

Additional observations from a re-analysis of the deposited data

Results flagged for a closer look

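In each of the 77 text genes, some of which are not named above, the 4 CR arrays at ZT8 were searched for an outlying array. Its gap to the nearest other had to exceed Dixon's 95% critical value, which chance passes in about 1 of 20 groups. Such an array was found in 4 of the 77 genes. CR replicate 2 read 7.06 in Ciart, below the other CR arrays at 7.73 to 7.77. CR replicate 3 read 7.88 in Ddit3, below the others at 8.17 to 8.21. CR replicate 1, the array with the lowest mean correlation to the rest, read 7.81 in Il33, below the others at 8.71 to 8.89. It also read 8.49 in Grhl1, below the others at 9.03 to 9.10.

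Per2 was picked out because its diet difference at ZT8 differed from the mean diet difference at the other times by a test of that contrast. The value was 1.14 on the log2 scale (limma adjusted p = 0.0181).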

How the results depend on the processing

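The diet difference at ZT8 called 1 gene, and alternatives moved this count. It was 2 with only the 7 arrays, without the dim filter, after a second quantile normalization and with sex as a covariate, 3 with only aged arrays and 6 with every probe set tested on its own. With only the 7 arrays or only aged arrays, Nrg4 was not among the called genes (limma adjusted p = 0.106 and 0.124). It stayed 1 with the 50th percentile filter, the mean of probe sets, median centring, an intensity trend and the RNA quality covariate. Array quality weights gave 950 (565 higher, 385 lower), from an estimate of the weights that stopped before its tolerance, and gene by gene weights, chosen after seeing the data, gave 608. The contrast of ZT8 with the other times called 1 gene as reported, 0 with only aged arrays and with the mean of probe sets, and 1688 and 1290 with these weights. The contrast of ages called 0 in all settings except the gene by gene weights, with 2. The cause of these moves was not tested.

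With the replicate number as a block, a pairing that the check could not decide, the ZT8 difference and its contrast with other times each called 0 genes. Nrg4 was then at -1.05 (limma adjusted p = 0.360). Leaving out single arrays called 0 to 1 genes in both contrasts and 0 in the contrast of ages. Without CR replicate 1 the called gene was Per2 (limma adjusted p = 0.0489). Nrg4 lay between -1.08 and -0.85 over 21 alternatives and passed in 12, with limma adjusted p from 0.000485 to 0.360. The value of -0.85 and the lowest adjusted p came from the array quality weights. Those weights were 3.32 for CR replicate 4 and 3.10 for control replicate 3, and 0.425 to 1.42 for the other arrays compared. Per2 lay between 0.80 and 1.06 and passed in 4, with limma adjusted p from 2.419e-05 to 0.794. Its lowest adjusted p also came from the array quality weights, and both weighted fits were among the 4 passes.

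Among small clock differences the sign turned. Rora was -0.040 with the mean of probe sets, -0.032 after centring, -0.0020 with RNA quality and -0.028 with the block, and lay between -0.028 and 0.046 without single arrays. Npas2 was 0.0068 after quantile normalization and lay between -0.24 and 0.0088 without single arrays. Dbp was 0.018 after quantile normalization, 0.17 with either weights, and between -0.23 and 0.14 without single arrays. Cry1 lay between -0.034 and 0.44 without single arrays. No other text gene changed sign in these settings. In size, 33 of the 77 text genes and 9 of 11 list medians moved by over 1.5 times without at least 1 of the 7 arrays.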
